A study of Homo sapiens with 4 samples.

Results

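The genes S100A8, S100A9, S100A12, LTF, CAMP, LCN2, MMP8, MMP9, FPR1 and FCGR1A encode proteins of late granulocyte stages. They were chosen by name, as 10 of 19974 protein-coding genes on chromosomes 1 to 22 and X, and each was followed over its annotated body and 20 kb on each side. All 10 were found in the RefSeq table of GRCh38.p14, the assembly of hg38. The measurements are CUT&Tag peaks from NB4, an established line of human acute promyelocytic leukemia whose cells express a PML and RARA fusion protein. In CUT&Tag an antibody directs a transposase to chromatin, and the fragments it cuts out are sequenced. There were 4 libraries from NB4 cells, 1 with an antibody labelled PPARα, 1 with an antibody labelled PML/RARA and an IgG control named for each. The labels give no drug, time or genotype that differs between them, and the IgG libraries were not analysed here. Each antibody has 1 peak list and no replicate, so no difference could be tested and the values below are descriptions of these lists.

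Neutrophil precursors make their granule proteins in waves. Azurophil granules form at the promyelocyte stage, specific granules with lactoferrin and cathelicidin at the myelocyte stage, and gelatinase granules later still. Leukemic promyelocytes of this disease stop before the later waves, and retinoic acid, which acts on the fusion protein, lets them go on. PPARα is a nuclear receptor that senses fatty acids and binds DNA with RXR.

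PML/RARA peaks lay in the window of every one of the 10 genes, and PPARα peaks in the windows of 5. Over all protein-coding genes, 78.9% had a PML/RARA peak in such a window, 53.5% had a PPARα peak, and 52.9% had both. The PPARα count of 5 of 10 was thus near the background. Among PPARα peaks with −log10 q of at least 5 it was 3 of 10, beside 40.2% of all genes. The PML/RARA list was also shortened to the 9819 peaks with the highest −log10 q, the length of the PPARα list. With it, 4 of the 10 genes had a PML/RARA peak in the window, beside 47.9% of all genes. The windows of the 10 genes held 32 distinct PML/RARA peaks and 6 distinct PPARα peaks. Of the 32, 8 were in the shortened list, which kept 9819 of all 45988 PML/RARA peaks used. A gene had a median of 3.5 PML/RARA peaks here against 2 over all protein-coding genes. Per 100 kb of window, the medians were 6.69 and 2.92, and 8 of the 10 genes lay above the median of all genes. The windows of the 10 genes were shorter, with a median of 47.2 kb against 64.2 kb, which raises the density for a given count. For PPARα the medians per 100 kb were 0.558 and 0.529. The windows of S100A8, S100A9 and S100A12 overlap and share 4 of their PML/RARA peaks, so the 10 genes are not independent.

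**Figure D1:**
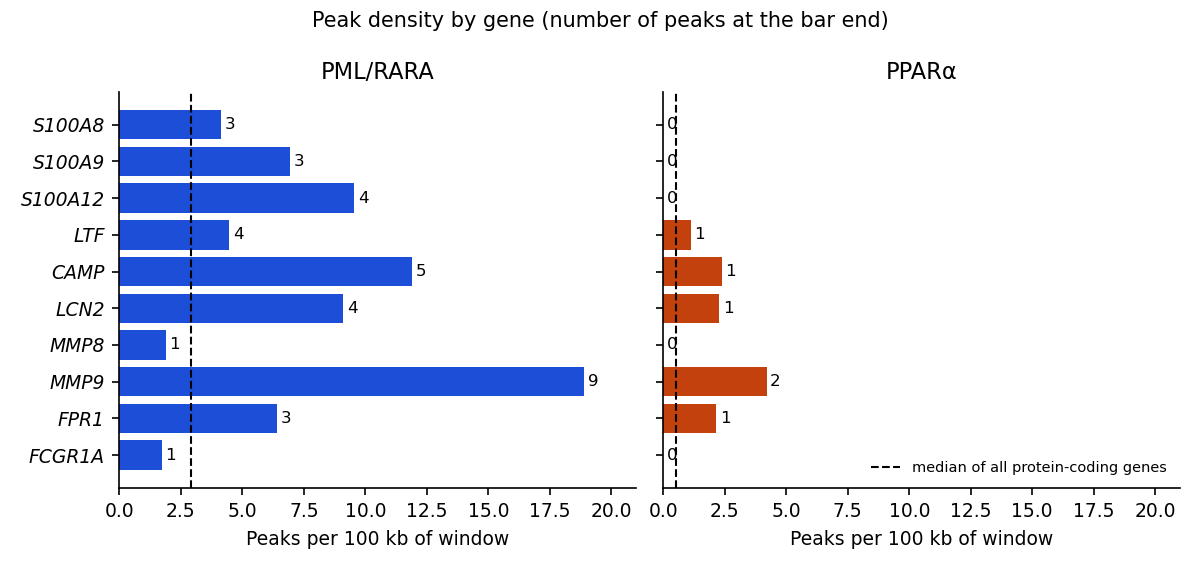
Peaks per 100 kb of window (gene body and 20 kb on each side) for each of the 10 genes, PML/RARA on the left and PPARα on the right, with the number of peaks at the bar end and the median of all protein-coding genes as a dashed line. MMP9 was highest for both antibodies, with 9 and 2 peaks, and S100A8, S100A9, S100A12, MMP8 and FCGR1A had no PPARα peak.

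Few of the peaks were at the starts of the genes themselves. RefSeq starts were listed for 9 of the 10 genes, and not for MMP9. A PML/RARA peak lay within 1 kb of a listed start at 4 of the 9, CAMP, S100A8, S100A12 and FPR1, against 59.7% of the 15812 protein-coding genes with a listed start. A PPARα peak lay there at 1 of the 9, CAMP, against 35.1%. With either annotated end in place of a start, which includes MMP9, PML/RARA marked 5 of 10 (57.8% of all genes) and PPARα 1 of 10 (32.3%). The bodies of 7 of the 10 genes touched a PML/RARA peak (66.9% of all genes) and those of 0 a PPARα peak (34.5%). These bodies were shorter than those of all genes (median window with flanks 47.2 kb against 64.2 kb). A shorter body has less room for a peak, and length was not accounted for. Of the 32 PML/RARA peaks, 4 were within 1 kb of a listed start of these genes and 4 within 1 kb of a start of another protein-coding gene. The neighbours were ZNF589, BBLN, SLC12A5 and H2BC18. A further 5 had their summits inside one of the genes, and 19 lay elsewhere. The 19 include the peak over the lower-coordinate end of MMP9 and the one next to it, since no MMP9 start was listed. Of the 6 PPARα peaks, 1 was at a start of these genes, 2 were at the starts of BBLN and SLC12A5, and 3 lay elsewhere, all outside the gene bodies. Peaks at a listed coding start were thus 8 of 32 for PML/RARA, beside 24.2% of the whole list, and 3 of 6 for PPARα, beside 51.6%.

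**Figure D2:**
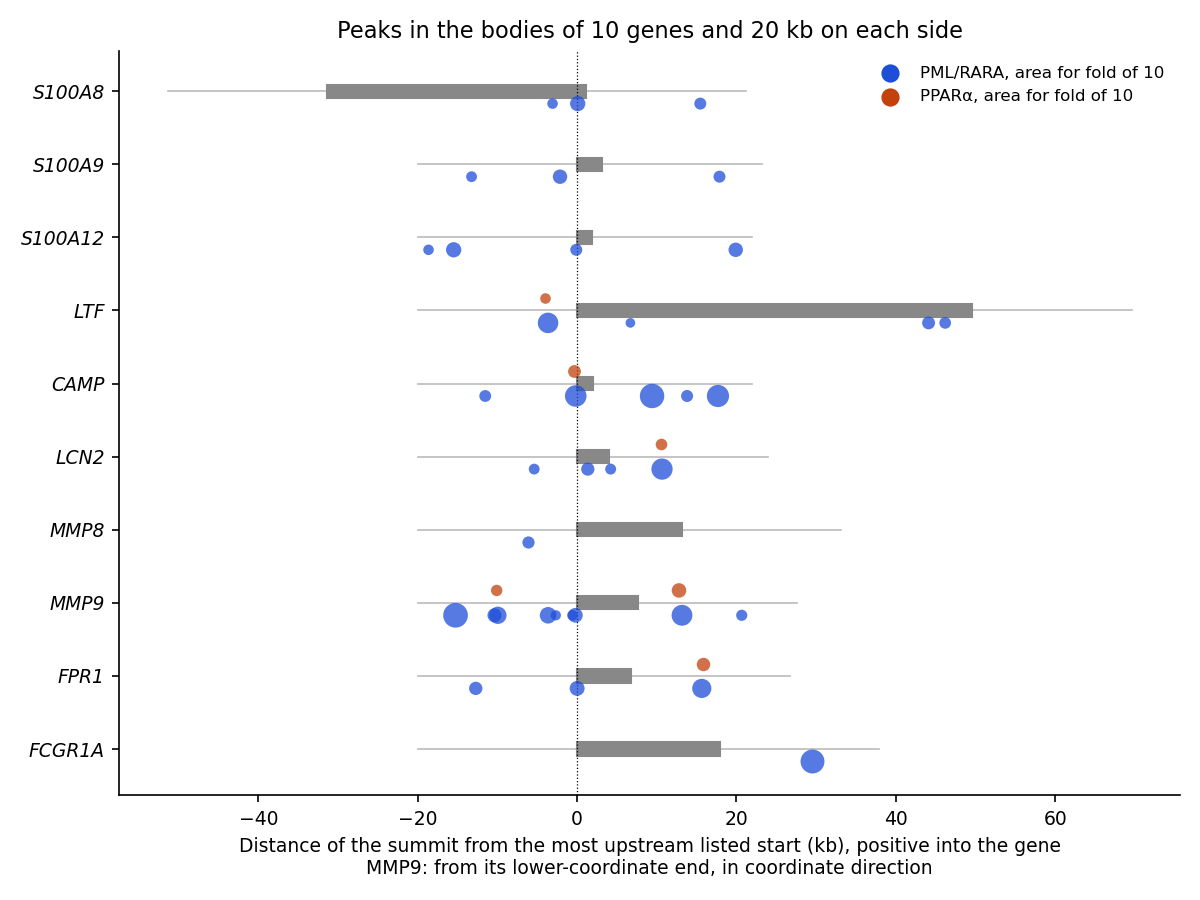
Position of each peak summit along the 10 genes, in kb from the most upstream listed start, with positive values into the gene (for MMP9, from its lower-coordinate end in coordinate direction). Gray bars are annotated gene bodies, thin lines the windows, circles the PML/RARA (blue) and PPARα (orange) peaks with an area set by the fold in their own list. Summits lie within 1 kb of the start at S100A8, S100A12, CAMP and FPR1 and of the lower end of MMP9, and the body of S100A8 reaches upstream of its listed starts because the annotated gene is longer than the transcripts listed.

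S100A8 and S100A9 encode the calcium-binding subunits of calprotectin, the main cytosolic protein of neutrophils, and S100A12 encodes a related calgranulin. The 3 genes span 64.7 kb of chromosome 1, and their joined windows held 5 PML/RARA peaks and no PPARα peak. The nearest PPARα peak, at 153545238 to 153545740, lay 122.7 kb from S100A8, 169.6 kb from S100A12 and 184.2 kb from S100A9. The span and these distances were measured from annotated bodies. That of S100A8 reaches 153422583, well upstream of its most upstream listed start at 153391188, so its distance from the start is larger.

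At S100A8 (chromosome 1, 153390032 to 153422583, minus strand) a PML/RARA peak of 140 bases from 153391072 to 153391211 covered listed starts at 153391188 and 153391073. Its fold enrichment, a linear ratio over background that the authors' peak caller reports, was 8.97, above 59.9% of the list. Its −log10 q, the authors' significance score for a peak, was 12.9. A weaker peak from 153394194 to 153394324 lay 3.08 kb upstream of the starts, inside the annotated gene (fold 4.27, −log10 q 2.92). S100A12 (153373711 to 153375621, minus strand) had a peak over its start from 153375517 to 153375769, at fold 5.53 and −log10 q 5.001. S100A9 (153357854 to 153361023, plus strand) had none at its start. Its nearest peak ran from 153355624 to 153355747, with its summit 2.14 kb upstream, at fold 7.998 and −log10 q 10.6. The fifth peak of this region, from 153344600 to 153344705, lay 13.2 kb upstream of S100A9 with a fold of 4.52. The 5 peaks were 106 to 253 bases wide and of low or middle fold, and none was above the 75th percentile of the PML/RARA list by fold.

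CAMP encodes the cathelicidin antimicrobial peptide of specific granules and was the gene of the group with both antibodies at its start. The gene lies on chromosome 3 from 48223495 to 48225485, plus strand. A PML/RARA peak from 48223176 to 48223620 covered the start at fold 17.9 and −log10 q 59.6, above 88.7% of the list by fold. The PPARα peak ran from 48222879 to 48223277, with its summit 417 bases upstream of the start, at fold 6.32 and −log10 q 6.55, which is close to the middle of its list (50.9th percentile by fold). They shared 102 bases, and their summits were 248 bases apart. Downstream of CAMP, PML/RARA peaks of fold 22.9 (48232769 to 48233023) and 5.56 (48237264 to 48237417) lay between genes, and 1 of fold 18.9 covered the start of ZNF589, a zinc finger gene. The fifth peak, 11.5 kb upstream, had a fold of 5.40. The strongest peak of the CAMP window was therefore 9.41 kb past the start and not at it, and it had no PPARα peak.

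The promoters with a PML/RARA peak over the start are shown to place the peaks on the DNA. Each line gives the 250 bases before the listed start, 5′ to 3′ on the gene's strand, from the RefSeq promoter table of GRCh38.p14. Capitals mark bases under the PML/RARA peak for S100A12, S100A8 and FPR1. At CAMP the PML/RARA peak covered all 250 bases, and capitals mark the 33 bases that the PPARα peak reached as well.
CAMP, chr3:48223245-48223494, plus strand: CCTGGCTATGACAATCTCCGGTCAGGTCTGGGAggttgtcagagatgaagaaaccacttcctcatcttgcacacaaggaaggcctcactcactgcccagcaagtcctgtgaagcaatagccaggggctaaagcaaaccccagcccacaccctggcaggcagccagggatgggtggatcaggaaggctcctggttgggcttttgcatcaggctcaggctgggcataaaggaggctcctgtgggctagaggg
S100A12, chr1:153375622-153375871, minus strand: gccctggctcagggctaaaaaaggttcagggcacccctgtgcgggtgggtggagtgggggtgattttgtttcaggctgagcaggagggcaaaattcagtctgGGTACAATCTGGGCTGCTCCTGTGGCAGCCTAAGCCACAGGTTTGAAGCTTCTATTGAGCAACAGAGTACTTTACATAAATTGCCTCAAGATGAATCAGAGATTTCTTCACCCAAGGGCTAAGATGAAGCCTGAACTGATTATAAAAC
S100A8, chr1:153391189-153391438, minus strand: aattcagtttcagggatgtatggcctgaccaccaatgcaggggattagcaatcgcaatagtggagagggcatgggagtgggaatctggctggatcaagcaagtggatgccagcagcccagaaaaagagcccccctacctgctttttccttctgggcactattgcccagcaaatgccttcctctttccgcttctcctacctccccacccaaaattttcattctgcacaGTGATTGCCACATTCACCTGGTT
FPR1, chr19:51751879-51752128, minus strand: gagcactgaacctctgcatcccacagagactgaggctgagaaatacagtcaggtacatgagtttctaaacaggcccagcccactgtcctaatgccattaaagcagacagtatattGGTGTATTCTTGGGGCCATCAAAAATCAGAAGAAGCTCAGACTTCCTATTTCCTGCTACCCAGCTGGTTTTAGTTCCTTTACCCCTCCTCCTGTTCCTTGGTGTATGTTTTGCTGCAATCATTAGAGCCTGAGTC
The PML/RARA peak covered the last 148 of the 250 bases at S100A12, the last 135 at FPR1 and the last 23 at S100A8. Each of these peaks, and the one at CAMP, continued past the start. The PPARα peak at CAMP lay at the far end of the promoter and beyond it, not next to the start.

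LTF encodes lactoferrin, the iron-binding protein of specific granules. The gene lies on chromosome 3 from 46435645 to 46485234, minus strand, and had no peak within 1 kb of its 3 listed starts. Its strongest PML/RARA peak, from 46488768 to 46489109, had a summit 3.64 kb upstream of the most upstream start, at fold 16.2 and −log10 q 36.5. A PPARα peak from 46489017 to 46489368 shared 93 bases with it, at fold 4.31 and −log10 q 2.53, which put it at the 12.8th percentile of its list by fold. The summits were 385 bases apart. Inside LTF, PML/RARA peaks of fold 3.57, 5.30 and 6.43 were called, the first with a −log10 q of 1.82. The upstream site was thus the strong one for PML/RARA and a weak one for PPARα.

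LCN2 encodes lipocalin 2, which binds bacterial siderophores. The gene lies on chromosome 9 from 128149453 to 128153453, plus strand. Its own PML/RARA peaks were modest: 1 inside the gene from 128150741 to 128150993, 1.34 kb past the start (fold 6.73, −log10 q 11.8), 1 just beyond the far end (fold 4.60) and 1 at 5.38 kb upstream (fold 4.51). The window's highest fold, 17.3, belonged to a broad peak of 976 bases from 128159371 to 128160346 over the start of BBLN. The PPARα peak of this window (128159800 to 128160161, fold 5.17, −log10 q 3.92) lay wholly inside that peak. The overlapping pair of the LCN2 window therefore sat at the start of a neighbour.

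MMP8 encodes neutrophil collagenase and was among the least marked of the 10 genes. It lies on chromosome 11 from 102711796 to 102724954, minus strand. Its window held 1 PML/RARA peak, from 102731101 to 102731212, with its summit 6.19 kb upstream of the start, at fold 5.71 and −log10 q 5.34. The nearest PPARα peak was 258.6 kb away.

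MMP9 encodes gelatinase B, which defines the gelatinase granules, and was the most densely marked. It lies on chromosome 20 from 46008908 to 46016561. Its window held 9 PML/RARA peaks (18.9 per 100 kb, more than 96.9% of protein-coding genes) and 2 PPARα peaks (4.20 per 100 kb, more than 94.3%). A PML/RARA peak from 46008560 to 46009036 covered the lower-coordinate end of the gene at fold 8.36 and −log10 q 34.5, and a smaller one of fold 4.26 lay next to it. Toward lower coordinates followed peaks of fold 4.02 and 10.6, at 2.67 and 3.64 kb from that end. A PPARα peak of fold 5.03 (45998569 to 45998968, −log10 q 3.63), 10.1 kb out, touched a pair of PML/RARA peaks of fold 7.55 and 11.5. The highest fold of the window, and of all 32 peaks, was 23.4, at 45993442 to 45993805, 15.3 kb out, with a −log10 q of 114 and no PPARα peak. On the other side of the gene, a PML/RARA peak of fold 4.79 (46029541 to 46029644, −log10 q 4.08) lay 20.7 kb from the same end. The other PPARα peak (46021618 to 46022018, fold 8.15, −log10 q 10.7) was the strongest of the 6. It lay at the start of SLC12A5, a potassium-chloride cotransporter gene, under a PML/RARA peak of fold 16.7 that begins at the same base. This PML/RARA peak also covers the start of SLC12A5-AS1, a noncoding RNA gene, so the pair cannot be assigned to MMP9 by position.

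FPR1 encodes the formyl peptide receptor that guides neutrophils to bacteria. The gene lies on chromosome 19 from 51745172 to 51751878, minus strand. A PML/RARA peak from 51751835 to 51752013 covered the start, with its summit 5 bases inside the gene, at fold 8.57 and −log10 q 10.8. A stronger peak (51736047 to 51736339, fold 14.2, −log10 q 27.7) shared 195 bases with a PPARα peak (51735908 to 51736241, fold 6.99, −log10 q 7.09). These summits were 89 bases apart, the closest of the 7 overlapping pairs around the 10 genes, and both peaks covered a listed start of the noncoding RNA gene LOC124904754. The remaining PML/RARA peak (fold 6.84) lay inside FPR2, a paralog. PPARα was thus not called at the FPR1 start itself.

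FCGR1A encodes CD64, the high-affinity IgG receptor of monocytes and activated neutrophils. It lies on chromosome 1 from 149782694 to 149800609, plus strand. No peak of either list touched the gene, and the 1 PML/RARA peak of its window (149812132 to 149812260, fold 21.98, −log10 q 43.2) lay 110 bases from the listed start of H2BC18, a histone gene whose annotation runs over FCGR1A. The nearest PPARα peak was 84.6 kb away. FCGR1A has near-identical copies on the same chromosome, and short reads from such copies can be hard to place. Neither list had a peak in the windows of the copies FCGR1BP and FCGR1CP, and the part of read placement in the absence of peaks was not tested.

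Every PPARα peak around the 10 genes lay on a PML/RARA peak. The count was 6 of 6, beside 90.1% of all 9819 PPARα peaks, and in the other direction 7 of the 32 PML/RARA peaks touched a PPARα peak (21.9%, beside 21.4% of the whole list). Both shares, at 1 base or more in common, were near the background. When at least 50% of the shorter peak had to be shared, the PPARα count was 3 of 6, beside 80.5% of the list. It was also 3 with summits within 200 bases (55.6% of the list) and with the shortened PML/RARA list of 9819 peaks (54.8%). The 7 shared PML/RARA peaks had folds from 7.55 to 17.9 with a median of 16.2, and the 25 others had folds from 3.57 to 23.4 with a median of 5.71. In the whole PML/RARA list the medians of these classes were 14.6 and 6.43. The ranges overlapped, since the PML/RARA peaks of fold 23.4 beyond MMP9, 22.9 beyond CAMP and 21.98 at H2BC18 had no PPARα peak. None of the 6 PPARα peaks was above the 75th percentile of its list by fold, and the strongest was at the 74.4th. Their median fold was 5.75 against 6.26 over the list. Of the 32 PML/RARA peaks, 9 (28.1%) were above that percentile of theirs, beside 25% of any list by definition. Above the median of their list were 3 of the 6 PPARα and 16 of the 32 PML/RARA peaks. A difference between the antibodies was not tested. The PML/RARA peaks were narrower than the list, with a median width of 187 against 241 bases. The depth behind each list is unknown, so a site without a peak is one where none was called.

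**Figure D3:**
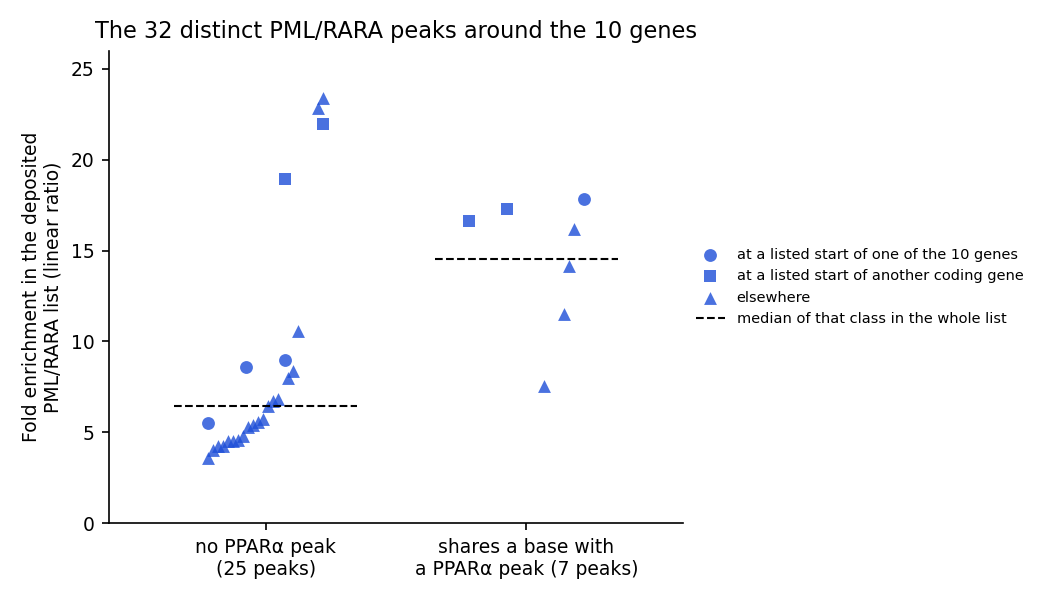
Fold enrichment (linear ratio, the authors' value) of the 32 distinct PML/RARA peaks around the 10 genes, split by whether they share a base with a PPARα peak. Symbols give the place of the peak and dashed lines the median of each class in the whole list (6.43 and 14.6). The 7 shared peaks lie between 7.55 and 17.9, inside the range of the 25 others.

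The promoters of these genes were poor in CpG dinucleotides, which are dense at most broadly active promoters. In RefSeq windows from 250 bases before to 50 after a listed start, the 13 windows of the 9 genes held a median of 2 CpG, against 21 over all 22132 windows of protein-coding genes. The GC content was 54.7% against 62.3%. Of the 13 windows, 12 were in the lowest of 3 classes of similar size by CpG (12 or fewer), and the remaining one, at an inner start of LTF, had 13. FPR1 had 0, CAMP, S100A12 and FCGR1A had 1 each, and S100A9 had 5. Across all windows the share with a PML/RARA peak within 1 kb of the start was 21.1% in the lowest class, 70.2% in the middle and 77.3% in the highest. For PPARα it was 7.17%, 47.0% and 43.6%. Among the 6097 genes with a listed start in the lowest class, 23.1% had a PML/RARA peak there and 8.22% a PPARα peak. The counts for the 9 genes, 4 and 1, thus lie below the share of all genes for both antibodies but not below that of genes with similarly few CpG. This split by CpG was made after the peak calls were known, and the part of CpG content in the calls was not tested.

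**Figure D4:**
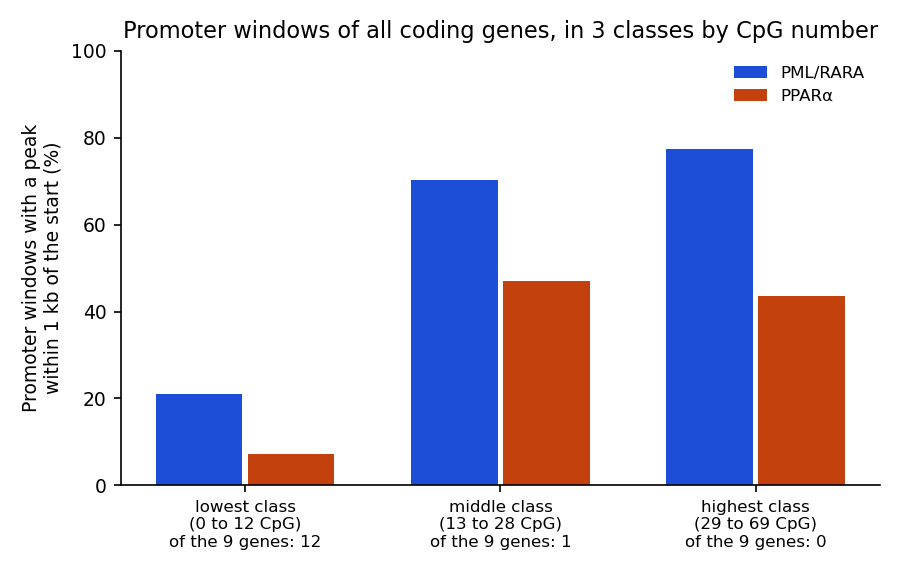
Share of promoter windows (%) with a peak within 1 kb of the listed start, for 22132 windows of protein-coding genes in 3 classes by their number of CpG, PML/RARA in blue and PPARα in orange. The number after "of the 9 genes" under each class counts windows, not genes, out of the 13 windows of the 9 genes with a listed start. Of these windows, 12 are in the lowest class, where 21.1% and 7.17% of all windows had a peak.

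The same windows were searched on both strands for a few words that resemble binding sites. The nuclear receptor hexamer AGGTCA was in none of the 13 windows, beside 11.9% of all windows. DR1, the same hexamer as a direct repeat with 1 base between the copies and the usual PPAR and RXR site, was in none either, beside 0.0226%. These windows hold little of the sequence under the peaks. Of the 6 PPARα peaks only the one at CAMP reached a window, by 33 bases, and 4 of the 32 PML/RARA peaks were at these starts. The other peaks were not searched, so the words may or may not occur there. The word TTNCNNAA, which fits C/EBP sites, was in the windows of 7 of the 9 genes, beside 31.4% of windows. GAGGAA, part of PU.1 sites, was in those of 6, beside 27.9%. TATAAA, the TATA box word, was in those of 5, S100A8, S100A9, S100A12, LTF and MMP8, beside 9.46%. At S100A9 and at the S100A8 start of 153391073 it began 29 bases before the start. The other matches began 8 bases before the start at S100A12, 110 before it at MMP8 and 126 before another start of S100A8, and 18 bases past an inner start of LTF on the opposite strand. GGGCGG, the GC box, was in the windows of LTF and S100A9, beside 56.3%. TTGCNNNAA, a longer word with the same beginning as many C/EBP sites, was in those of FPR1 and S100A12, beside 7.84%. Genes with several listed starts have several windows, so counts over genes and shares of windows are not on equal footing.

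Other genes of the same granules and families were taken from fixed lists, which include the 10 genes where they belong. Among 17 specific granule genes, 9 had a PML/RARA peak in the window (78.9% of all genes) and 5 a PPARα peak (53.5% of all genes). PML/RARA lay at the start of 3 of the 12 with a listed start (59.7% of all genes), and PPARα at 1 (35.1%). These were CAMP, PTX3, a pattern recognition protein gene (fold 15.5), and CHI3L1, a chitinase-like protein gene (fold 8.20). The PPARα peak was the one at CAMP. The other 8, CEACAM8, OLFM4, TCN1, CRISP3, HP, CD177, ABCA13 and ORM1, had no peak of either antibody in their windows. Among 8 gelatinase granule genes, 7 had a PML/RARA peak in the window and 3 a PPARα peak, beside the same 78.9% and 53.5%. PML/RARA lay at the start of 4 of the 6 with a listed start, PADI4 (fold 12.7), QSOX1 (12.7), FCN1 (7.05) and SLC11A1 (5.01), and PPARα at none, beside 59.7% and 35.1% of all genes.

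Of 20 members of the S100 family, 17 had a PML/RARA peak in the window and 13 a PPARα peak, beside 78.9% and 53.5% of all genes. At a listed start there were 11 and 6 of 19, beside 59.7% and 35.1%. Many S100 genes are neighbours and share peaks. The 6 with PPARα at the start were S100A1 (fold 6.38), S100A2 (6.24), S100A4 (6.52), S100A10 (4.21), S100A11 (4.60) and S100A13, which stood highest at 18.7. PML/RARA folds at the starts of these 6 ran from 10.9 at S100A10 to 24.6 at S100A2. The other starts of the family with a PML/RARA peak had folds of 17.1 (S100A16), 11.7 (S100A6), 8.97 (S100A8), 5.53 (S100A12) and 3.92 (S100P). The 6 were picked by their PPARα peaks, so their folds do not stand for the family. The 7 members without a PPARα peak in the window were the calgranulin genes S100A8, S100A9 and S100A12 and also S100A7, S100A7A, S100B and S100G.

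Among 18 genes listed for late granulocyte surface proteins, 16 had a PML/RARA peak in the window (78.9% of all genes) and 6 a PPARα peak (53.5%). The list holds receptors and also enzymes such as ANPEP, and the stage of its genes was not checked here. PML/RARA lay at the start of 10 of 17 (59.7% of all genes), with the highest −log10 q at ANPEP, the aminopeptidase CD13 (fold 19.6), C5AR1, a complement receptor gene (16.3), FCGR2A (12.5) and ITGAM, the CD11b gene (15.9). PPARα lay at the start of 0 of the 17 (35.1% of all genes). Azurophil granules form at the promyelocyte stage, at which NB4 cells stand. The granule and cell type of the 16 genes listed for them, RNASE2 and RNASE3 included, were not checked here. These 16 genes had PML/RARA peaks in 13 windows and PPARα peaks in 11, beside 78.9% and 53.5% of all genes. Of the 8 with a listed start, 6 had PML/RARA there (59.7% of all genes), with the highest −log10 q at CFD (fold 14.8), AZU1 (11.5), PRSS57 (9.26) and CTSC (16.2). PPARα was at 3 (35.1% of all genes), RNASE2 (fold 12.7), RNASE3 (7.93) and CTSC (7.83). Some genes within these lists are neighbours with overlapping windows, such as FPR1 and FPR2 or AZU1 and CFD. The genes of a list are therefore not independent. The difference between these lists was not tested.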

How the data were processed

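The authors deposited 2 narrowPeak lists, 1 per antibody, on hg38. The tools in the submitters' processing notes are MACS 1.4.2, Bowtie2 2.2.9, bedtools and SAMtools, with no roles or settings. The narrowPeak layout is that of later MACS releases, so the version that made the folds and q-values is not settled. Whether IgG served as the control is not stated there. Per the deposited lists' layout, each peak has a fold enrichment (a linear ratio), a p-value and a q-value as −log10, a whole-number score that follows the −log10 q and was not used further, and a summit. Folds cannot be compared between the antibodies. The PPARα list held 9829 peaks and the PML/RARA list 46021, with smallest −log10 q of 1.32 and 1.30. Depth is unknown, since no read counts were used here.

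Only chromosomes 1 to 22 and X were used, which dropped 10 and 33 peaks. Positions are 1-based. A peak counted in a window when it shared at least 1 base with it. Gene bodies came from RefSeq, and starts and strands from the RefSeq promoter table, which lists 15812 of the 19974 protein-coding genes. Shares over all of these genes stand beside the counts in place of a test. Percentiles are ranks by fold within a list. The labels do not say which part of the fusion its antibody binds, so the fusion cannot be told apart from unfused PML or RARA. No genome sequence was used here outside the promoter table. Named were the 10 genes, all their peaks, neighbours with a start within 1 kb of a peak, and, per list, up to 4 genes with the highest −log10 q at the start and any with PPARα there. For the gelatinase granule genes that is all of those with PML/RARA at the start. The specific granule genes without peaks, SLC12A5-AS1, LOC124904754, FPR2 and the FCGR1A copies were named after their values were seen. So were S100A6, S100A7, S100A7A, S100A16, S100B, S100G and S100P. The genes, lists and words were chosen with earlier results of these data known. Counting was tested on simulated intervals and recovered 400 of 400 genes. Python 3.11.15, pandas 2.3.3, NumPy 2.4.6 and matplotlib 3.10.9 were used.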

Additional observations from a re-analysis of the deposited data

How the results depend on the processing

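Of 35 counts recomputed under alternative settings, 21 stayed within 1.5 times the main value. For PML/RARA the 32 distinct peaks became 10 in gene bodies alone and 54 with flanks of 50 kb. They became 8 with the list shortened to the 9819 of its 45988 peaks with the highest −log10 q. That shortened list left 4 of the 10 genes with a peak in the window (47.9% of all genes). The shortening changes both the number of peaks and the lowest −log10 q, and the cause was not tested. For PPARα the 6 peaks became 0 in gene bodies alone, 11 with flanks of 50 kb and 3 with −log10 q of at least 5. The genes with a PPARα peak became 0 in bodies alone (34.5% of all genes) and 3 with −log10 q of at least 5 (40.2%). The bodies of the 10 genes were shorter by median than those of all genes, which was not accounted for. A window of 5 kb around the start raised the counts to 7 of 9 for PML/RARA (66.6% of all genes) and 2 of 9 for PPARα (38.4%). The PPARα peaks with a PML/RARA partner fell from 6 to 3 with at least 50% of the shorter peak shared (80.5% of the whole list), to 3 with summits within 200 bases (55.6%) and to 3 with the shortened list (54.8%). The unknown depth limits what a missing peak means. No paired analysis was possible because each antibody has 1 list and no test was run.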
